A study of Rattus norvegicus with 11 samples.

Results

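The BCL2 family genes Bcl2l11, Bax, Bak1, Bid, Bbc3, Bcl2, Bcl2l1 and Mcl1, together with the caspase gene Casp9, were examined in rat liver after mequindox, an antibacterial feed drug of the quinoxaline N-oxide class. Members were found by gene symbol: every probe set of the array that the platform annotation assigns to a single symbol on this list. This gave 16 probe sets of 8 genes, out of 31099 probe sets and 14217 genes with such a probe set in all. The only Bax probe set carries 2 symbols, so Bax was not analysed here. Casp9 is an initiator caspase, and of the executioner caspases, which were placed in a wider list, only Casp6 was tested, so the 9 genes are described below as the BCL2 family and Casp9.

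Each array held liver RNA of a single Wistar rat. The 8 high-dosed animals (numbers 2, 3, 4, 5, 6, 8, 10 and 11) received mequindox at the high dose, and the 3 control animals (numbers 1, 2 and 9) are labelled only as control. Age was week 9 for every animal except high-dosed animal 8, at week 10; the dose in units of mass, the length of treatment, the sex and the vehicle are not given in the sources used here. Both groups were picked for arrays after liver metabolite profiles and blood chemistry were known.

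BCL2 family proteins decide whether the outer mitochondrial membrane stays intact. The BH3-only proteins, here Bim (gene Bcl2l11), Bid and Puma (gene Bbc3), report stress and damage. They bind the guardians Bcl-2, Bcl-xL (gene Bcl2l1) and Mcl-1, or activate the pore formers Bax and Bak (gene Bak1). Once the membrane opens, cytochrome c joins Apaf1 to activate Casp9, which cleaves the executioner caspases. In hepatocytes Bcl-xL and Mcl-1 are the main guardians, and Bid carries the signal from death receptors such as Fas to mitochondria.

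Of the 8 measured members, 1 rose in high-dosed livers, Bcl2l11, and 7 did not pass the test. The test was a linear model per gene in limma, and a gene was called at a Benjamini-Hochberg adjusted p below 0.05 over the 10714 genes tested. That is 12.5% of the members, beside 10.6% of all genes tested that were called in either direction, so the share of members called lay near the background. Among the representatives, meaning the brightest probe set of each gene, the groups did not overlap for 1 of 8, also 12.5%, beside 12.1% of all genes, or 8.69% where only genes higher in high-dosed livers are counted. All 8 representatives passed the signal filter, which kept probe sets from the 40th percentile of mean signal up, and so did 12 of the 16 probe sets, of which 1 was called, beside 6.92% of all probe sets tested.

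Bcl2l11, encoding the BH3-only protein Bim, rose 2.01-fold in high-dosed livers. Its intensity on probe set 1388742_at was 427 in high-dosed animal 2, 421 in animal 3, 648 in animal 4, 474 in animal 5, 406 in animal 6, 382 in animal 8, 297 in animal 10 and 483 in animal 11. In controls it was 255 in animal 1, 184 in animal 2 and 138 in animal 9. Every high-dosed animal stood above every control, with high-dosed animal 10 the closest to the highest control. The means were 442 ± 101 in high-dosed animals and 192 ± 58.6 in controls (SD, n = 8 and 3). The log2 fold change was 1.01 ± 0.18 (SE; 95% interval from 0.63 to 1.39; limma adjusted p = 0.00477). An exact two-sided permutation test over the 165 arrangements of the animals gave p = 0.00606, the smallest it can give. Among the 10714 genes Bcl2l11 stood at rank 165 by p and at rank 23 by the size of the rise.

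The other Bcl2l11 probe sets did not show this difference. Probe set 1370787_at had intensities from 90.8 to 143 with a median of 118 in high-dosed animals, against 125, 128 and 114 in controls 1, 2 and 9. Its log2 fold change was -0.06 (95% interval from -0.28 to 0.15, adjusted p = 0.787 in the limma fit over all probe sets without a filter). Probe set 1387338_s_at lay under the filter, at 22.4 to 34.1 in high-dosed animals and 25.8 to 33.8 in controls, with a log2 fold change of 0.03 (95% interval from -0.07 to 0.13). The interval of 1370787_at ends below the lower bound of that of 1388742_at, so this pair disagrees by more than its error. However, 1370787_at was dim, with a mean log2 signal of 7.43, just above the filter at 7.40. Its intensities lay below all array medians, which ran from 149 to 187. Whether 1370787_at can show a rise was not tested. All values of 1387338_s_at lay below the 55.26 added to each intensity before log2, which shrinks its log2 fold change. This probe set therefore cannot decide whether a rise was present. Averaged over its probe sets above the filter, 1388742_at and the dim 1370787_at, Bcl2l11 had a log2 fold change of 0.47 and was still called (limma adjusted p = 0.0329). The files do not say which transcripts each probe set reads.

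**Figure D1:**
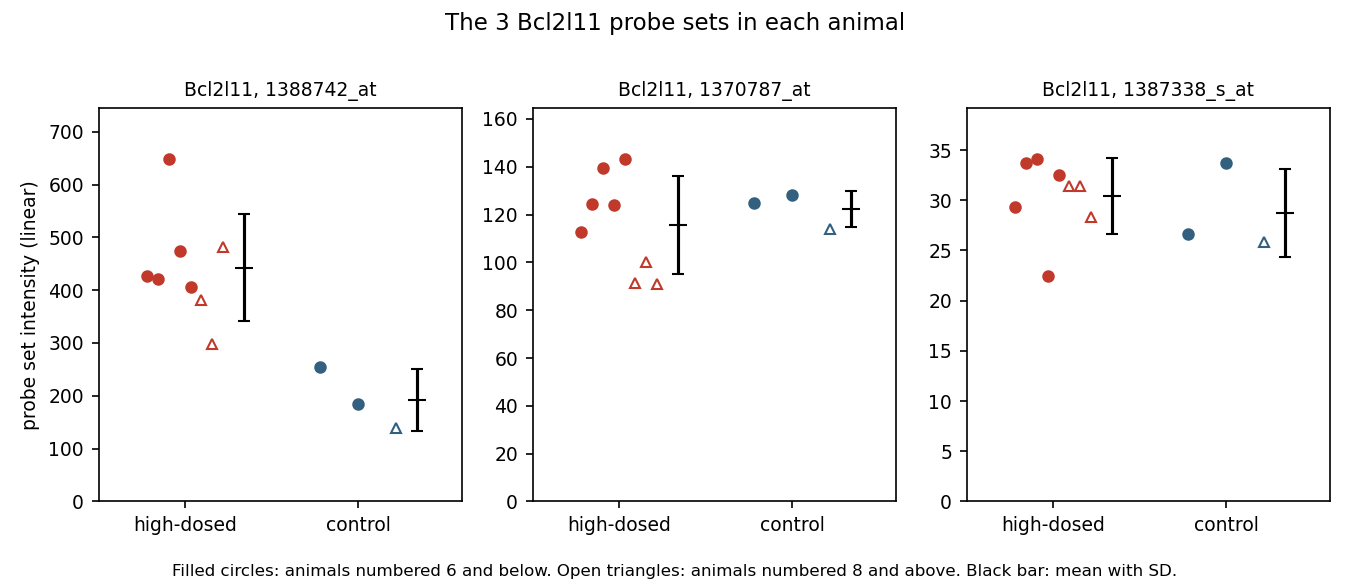
Intensity of the 3 Bcl2l11 probe sets (linear scale, y axis) in each of the 8 high-dosed and 3 control animals, with the mean and SD as black bars. On 1388742_at the high-dosed animals lie between 297 and 648 and all controls lie at 255 or lower, while on the other probe sets the groups overlap.

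The region around the Bcl2l11 start is shown because this was the member that rose, beside that of Mcl1, one of the guardians that Bim binds. Each runs 5′ to 3′ from 250 bases before to 50 bases after the start of the gene in RefSeq, build GRCr8, in lower case. Capitals mark matches on either strand to GTAAACA, the core of the site bound by FOXO factors, and to GGGCGG, the GC box bound by Sp factors. Bcl2l11 lies at chr3:135819792-135820091 and Mcl1 at chr2:185907918-185908217, both on the plus strand.
Bcl2l11: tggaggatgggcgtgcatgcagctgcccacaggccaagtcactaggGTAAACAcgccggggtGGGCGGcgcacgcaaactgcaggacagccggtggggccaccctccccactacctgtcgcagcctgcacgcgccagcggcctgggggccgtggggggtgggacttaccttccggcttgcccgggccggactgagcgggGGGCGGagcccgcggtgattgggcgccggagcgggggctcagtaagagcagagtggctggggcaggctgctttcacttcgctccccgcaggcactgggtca
Mcl1: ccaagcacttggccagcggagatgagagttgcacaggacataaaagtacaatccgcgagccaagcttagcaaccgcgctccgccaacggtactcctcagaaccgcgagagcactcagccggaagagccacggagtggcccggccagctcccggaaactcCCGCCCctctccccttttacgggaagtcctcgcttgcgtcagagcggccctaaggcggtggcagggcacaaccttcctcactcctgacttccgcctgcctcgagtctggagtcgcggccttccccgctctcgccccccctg

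RefSeq entries were matched for 7 of the 9 members. The FOXO core was found for 1 of the 7, Bcl2l11, where it spans bases -204 to -198 from the start on the plus strand. It occurs in 3.78% of all 33469 promoter entries of the same length. FOXO factors are known regulators of Bcl2l11. Named outside the fixed rule because of this match, the factor genes Foxo1 and Foxo3 had log2 fold changes of -0.19 ± 0.16 and -0.11 ± 0.13 (SE) and were not called (limma adjusted p = 0.481 and 0.652). The GC box was found for 6 of the 7 members, all but Bcl2, in Bcl2l1 at 1 of its 4 start entries, and in 33.1% of all entries. The motifs do not overlap each other in these windows, and a match describes letters only.

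The other pro-apoptotic members were not called. Bak1, the membrane pore former, had intensities from 305 to 420 with a median of 350.5 in high-dosed animals, against 294, 358 and 320 (319.53) in controls 1, 2 and 9. The log2 change was 0.12 (95% interval from -0.08 to 0.32, limma adjusted p = 0.46). Bbc3, encoding the BH3-only protein Puma, ranged from 422 to 595 with a median of 522, against 483, 456 and 436 in the same controls (0.14, interval from -0.10 to 0.38, limma adjusted p = 0.462). For both genes several high-dosed animals stood above the highest control and others stood at or below it.

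Bid, the link from death receptors to mitochondria, ranged from 485 to 728 with a median of 556 in high-dosed animals, against 562, 546 and 692 in controls 1, 2 and 9. The highest value was in high-dosed animal 6 and the next in control 9, so the groups overlapped. Its log2 fold change was -0.06 (95% interval from -0.32 to 0.19, limma adjusted p = 0.776), and the dimmer Bid probe set, 1369683_at, gave -0.06 as well. The median log2 fold change over the 4 measured pro-apoptotic members was 0.13, and 0.12 over the 3 without Bcl2l11, beside 0.02 over all genes tested. Over the 3 anti-apoptotic members it was -0.06. Family genes outside the members went the other way, with 0.04 over 8 pro-apoptotic and 0.18 over 2 anti-apoptotic genes. These medians were not tested.

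**Figure D2:**
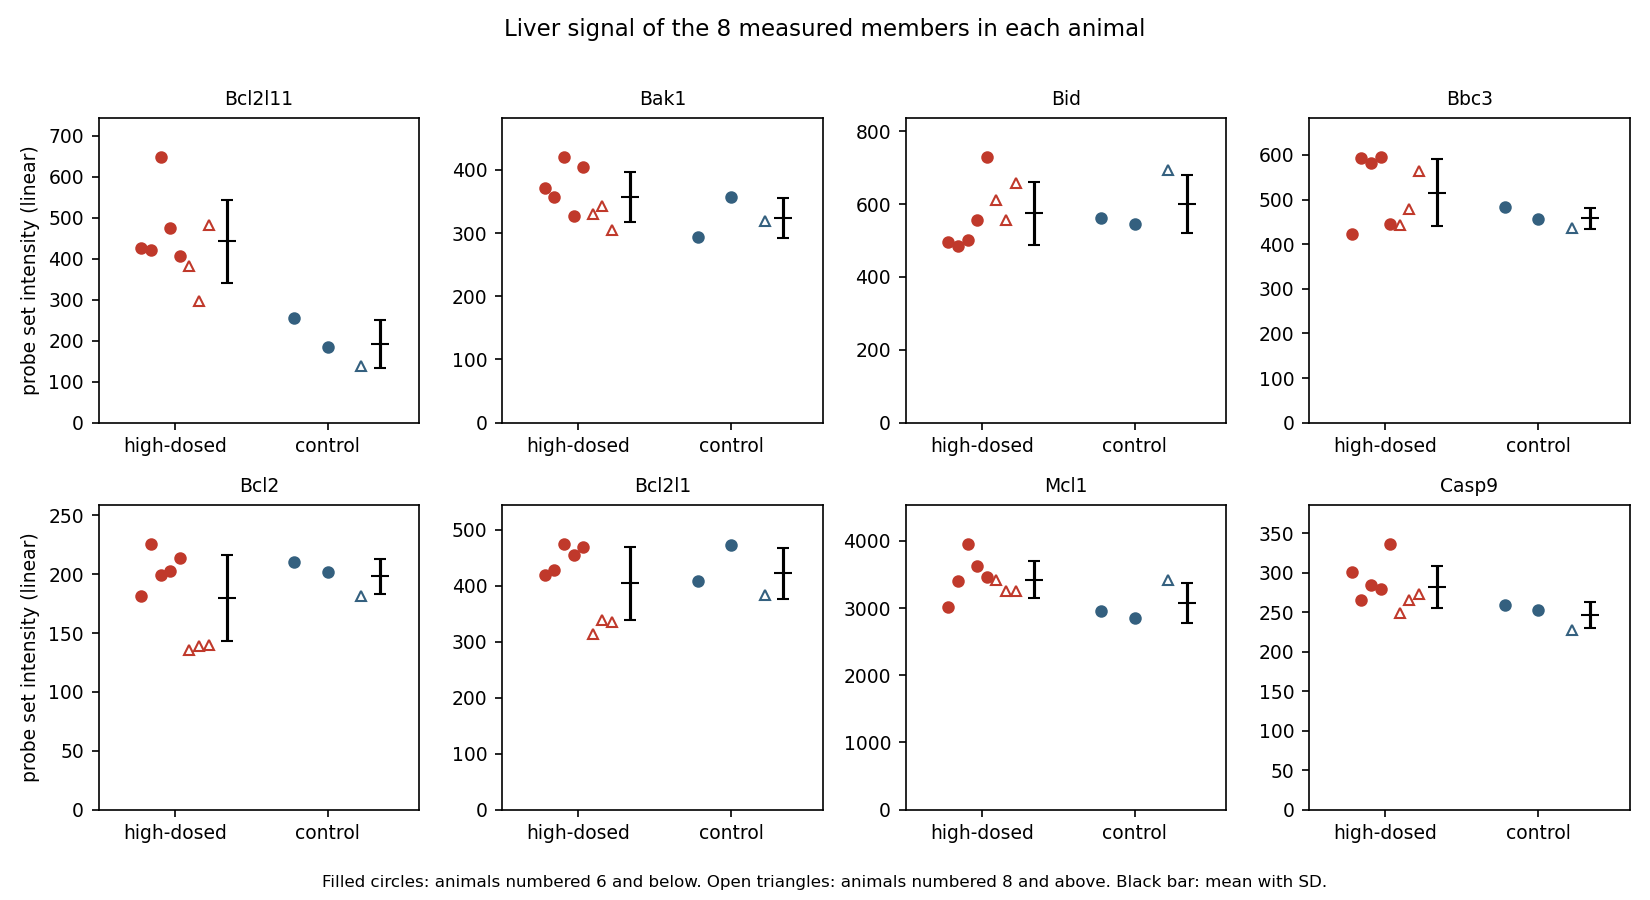
Intensity of the representative probe set of each of the 8 measured members (linear scale, y axis from 0) in the 8 high-dosed and 3 control animals, with mean and SD as black bars. The groups separate for Bcl2l11, and in Bcl2 and Bcl2l1 the high-dosed animals numbered 8 and above (open triangles) lie below all other animals.

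The anti-apoptotic members were not called either. Mcl1, a short-lived guardian on which hepatocytes depend, had intensities from 3021 to 3950 (3949.76) with a median of 3410 (3409.58) in high-dosed animals, against 2964, 2847 and 3412 in controls 1, 2 and 9. High-dosed animals 2, 3, 10 and 11 stood below control 9, while all 8 stood above controls 1 and 2. The log2 fold change was 0.15 (95% interval from -0.01 to 0.32, limma adjusted p = 0.23). The second Mcl1 probe set, 1370141_at, gave 0.07 (interval from -0.20 to 0.34), with high-dosed animal 2 lowest at 488.

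Bcl2l1, encoding Bcl-xL, had an intensity of 418, 428, 474, 454 and 469 in high-dosed animals 2, 3, 4, 5 and 6, and of 314, 339 and 336 in animals 8, 10 and 11. Controls 1, 2 and 9 stood at 408, 473 and 383.5. Its log2 fold change was -0.06 (95% interval from -0.33 to 0.20, limma adjusted p = 0.786). High-dosed animals 8, 10 and 11 were the lowest of the 11 animals, and the other high-dosed animals lay between 418 and 474, inside or just above the range of controls 1 and 2.

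Bcl2, the founding guardian of the family, was also lowest in high-dosed animals 8, 10 and 11. It stood at 182, 225, 199, 203 and 214 in high-dosed animals 2, 3, 4, 5 and 6, and at 135, 139 and 139.5 in animals 8, 10 and 11, against 211, 202 and 182 in controls 1, 2 and 9. Its log2 fold change was -0.12 (95% interval from -0.40 to 0.16, limma adjusted p = 0.595). A fit without high-dosed animals 8, 10 and 11, added once their values were known, gave 0.04 for Bcl2 and 0.08 for Bcl2l1. Leaving out the lowest animals had to raise both values, so this fit cannot decide what their sign rests on. Bcl2l1 also turned sign with these 3 animals kept, when control 2 was left out (0.01). Within animal numbers 8 and above, with 1 control, Bcl2 and Bcl2l1 had -0.30 and -0.19. Within numbers 6 and below they had -0.01 and 0.03, and neither was called. No label says what the animal numbers stand for, and 3 of the 4 animals in the upper range were high-dosed.

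The arrays of high-dosed animals 8, 10 and 11 also had the lowest median intensities, from 149 to 153, against 159 to 187 in the other high-dosed animals and 162 to 176 in controls. After each array was centred on its median, log2 Bcl2 signal in these 3 animals was 7.68 to 7.72, against 7.92 to 8.09 in the other high-dosed animals and 7.91 to 8.02 in controls. Centred Bcl2l1 was 8.64 to 8.72, against 8.88 to 8.98 and 8.80 to 8.97. The 3 animals thus stayed lowest for Bcl2 and Bcl2l1, by less than as deposited, but not for Mcl1, where they were at 11.78 to 11.87. Bcl2l11 on 1388742_at averaged 387 in high-dosed animals numbered 8 and above and 475 in the other high-dosed animals, against 138 in control 9 and 219 in controls 1 and 2. The log2 fold change was 0.94 within numbers 6 and below and 1.17 within 8 and above, where the value rests on control 9, the lowest of the 11 animals (limma adjusted p = 0.0783, not called).

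**Figure D3:**
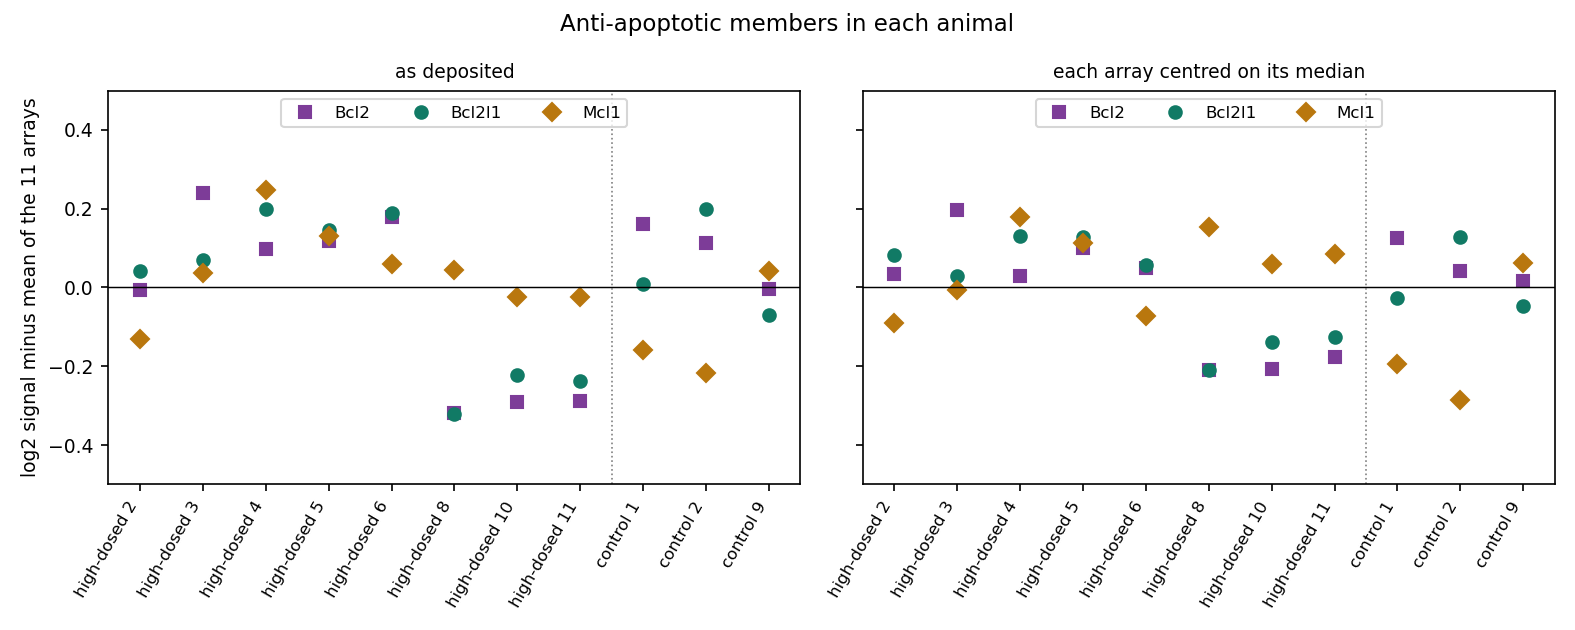
Log2 signal of Bcl2, Bcl2l1 and Mcl1 in each of the 11 animals, minus the gene's mean over all arrays, as deposited (left) and after centring each array on its median (right); the dotted line separates high-dosed from control animals. In both panels Bcl2 and Bcl2l1 are lowest in high-dosed animals 8, 10 and 11, and Mcl1 is not.

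Casp9, the initiator caspase of the apoptosome, had intensities from 249 to 336 with a median of 276 in high-dosed animals, against 259, 252 and 228 in controls 1, 2 and 9. All 8 high-dosed animals lay above the control mean, and high-dosed animal 8 lay below controls 1 and 2. The log2 fold change was 0.16 (95% interval from -0.02 to 0.33, limma adjusted p = 0.247). The other Casp9 probe sets gave -0.02 for each, and 1 of them lay under the filter.

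Set against each other by animal, the pro-apoptotic and anti-apoptotic members separated the groups only when Bcl2l11 was counted. The measure was the mean log2 deviation of the 4 pro-apoptotic members from their means over the 11 arrays, minus that of the 3 anti-apoptotic members. It ran from -0.04 to 0.33 in high-dosed animals (mean 0.09 ± 0.13, SD, n = 8) and from -0.26 to -0.17 in controls (mean -0.23 ± 0.05, SD, n = 3). Without Bcl2l11 it ran from -0.10 to 0.24 in high-dosed animals and from -0.09 to 0.00344 in controls, and the groups overlapped. The highest values among high-dosed animals were those of animals 8, 10 and 11, at 0.19, 0.11 and 0.33 with Bcl2l11 and at 0.155, 0.147 and 0.245 without it. In these animals the anti-apoptotic part was low, at -0.198, -0.180 and -0.183, against -0.032 to 0.182 in the other high-dosed animals. Their pro-apoptotic part was -0.005, -0.074 and 0.149, against -0.015 to 0.267. Arrays were not centred for this measure, and these 3 had the lowest medians. These scores are descriptions with no test, since the members were chosen with earlier results known.

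In the wider apoptosis pathway 7 genes rose, 0 fell and 44 did not pass, of 51 tested on 7 lists of 64 genes. That is 13.7% higher, beside 7.91% of all genes tested. The median log2 fold change was 0.07, beside 0.02 over all genes. Of the genes not tested, 2 lay under the filter, 1 had only probe sets of several symbols and 10 were not analysed here.

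Among the other caspases 1 of 6 rose, Casp6, an executioner caspase. Its intensity ran from 2072 to 2754 with a median of 2530.3 in high-dosed animals, against 1634, 1700.37 and 1599.99 in controls 1, 2 and 9, without overlap. The rise in log2 signal was 0.58 ± 0.08 (SE, limma adjusted p = 0.00142). Casp8, the initiator caspase of death receptors, had 0.27 ± 0.09 and was not called (limma adjusted p = 0.0797). With the animal number range as a block it was called (0.27, limma adjusted p = 0.0499), as it was without high-dosed animal 2 (0.30, 0.0453).

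In the death receptor pathway 2 of 7 rose. Fas, the receptor that recruits Casp8, ran from 1097 to 1270.03 with a median of 1172 in high-dosed animals, against 634, 881 and 717 in controls 1, 2 and 9. The rise was 1.56-fold (0.64 ± 0.08, SE, limma adjusted p = 0.00105), but its 3 probe sets did not all go the same way. The dimmest, 1397221_s_at, under the filter, gave 0.27 (95% interval from 0.02 to 0.52), with 7 of 8 high-dosed animals above the control mean. Another one, 1369900_at, gave -0.18 (95% interval from -0.43 to 0.07). It lay just above the filter, at a mean log2 signal of 7.43 against 7.40. Over the mean of the probe sets above the filter Fas was at 0.23 and not called (limma adjusted p = 0.101). Tradd, an adaptor of tumour necrosis factor receptors, rose by 0.39 ± 0.10 (limma adjusted p = 0.0324), with overlapping groups.

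Of 8 genes of the apoptosome and of released mitochondrial factors 3 rose. Diablo, which blocks inhibitors of apoptosis once released, ran from 1104 to 1371 with a median of 1198 in high-dosed animals, against 786, 864 and 968 in controls 1, 2 and 9. Its log2 fold change was 0.45 ± 0.08 (SE, limma adjusted p = 0.00408). Apaf1, the scaffold on which Casp9 is activated, rose by 0.42 ± 0.09 (limma adjusted p = 0.0116), from 322 to 399 in high-dosed animals against 219, 309 and 249.97 in the same controls, and its dimmer probe set 1369198_at, under the filter, gave -0.13. Vdac2, a channel of the outer mitochondrial membrane that binds Bak, rose by 0.16 ± 0.05 (limma adjusted p = 0.0459).

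The remaining lists held 1 call. Of 8 other pro-apoptotic BCL2 family genes 1 rose, Bnip3l, a mitochondrial receptor for mitophagy (0.28 ± 0.07, limma adjusted p = 0.0274), and its second probe set gave 0.29. Its relative Bnip3 had 0.17 ± 0.07 and was not called (limma adjusted p = 0.141). Of the other guardians 0 of 2 were called: Bcl2l2, encoding Bcl-w, had 0.24 ± 0.07 (limma adjusted p = 0.061) and Bcl2a1 0.13 ± 0.13 (limma adjusted p = 0.574). Bcl2l2 was called with the animal number range as a block (0.23, limma adjusted p = 0.0362), but its other probe set above the filter, 1369611_at, gave -0.15 and the mean of both 0.04 (limma adjusted p = 0.748). Of 4 inhibitors of apoptosis 0 were called, with 0.20 ± 0.12 for Xiap and 0.17 ± 0.12 for Birc3. Of 16 regulators of the members 0 were called; the lowest p were those of Ywhaz, an adaptor that holds Bad in the cytosol (0.20 ± 0.06, limma adjusted p = 0.0535), and of the ubiquitin ligase Mdm2 (0.19 ± 0.10, limma adjusted p = 0.243). Ywhaz was called with the animal number range as a block (0.20, limma adjusted p = 0.0409) and as the mean of its probe sets (0.21, 0.0251).

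**Figure D4:**
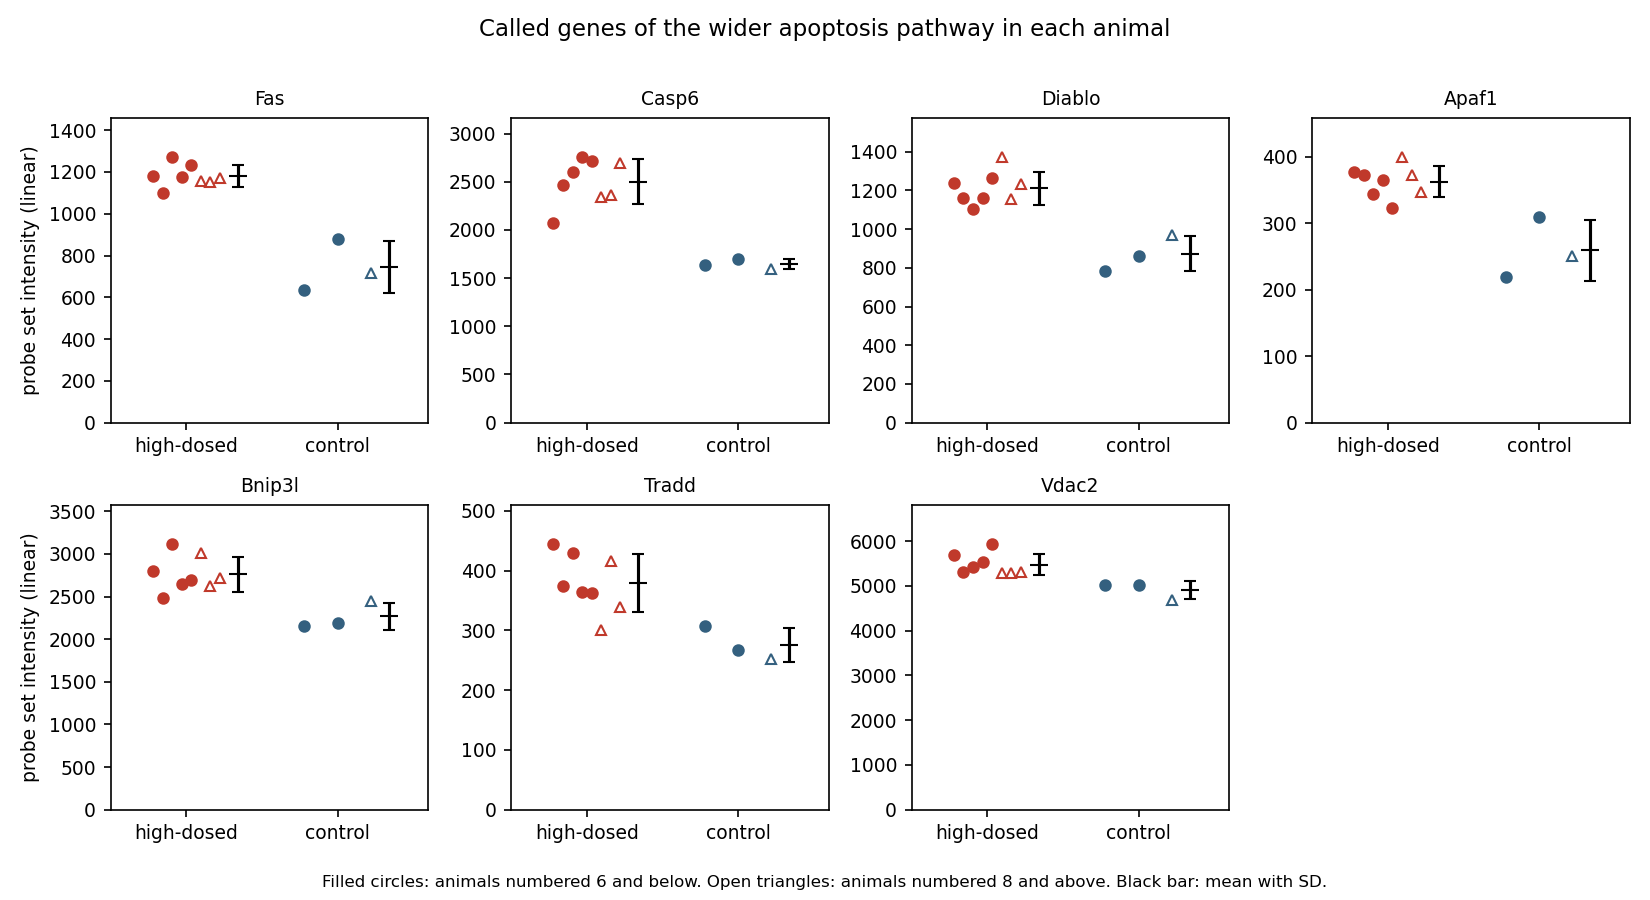
Intensity of the 7 called genes of the wider pathway (linear scale, y axis from 0) in each animal, ordered by adjusted p, with mean and SD as black bars. The groups overlap only for Tradd, and Fas lies between 1097 and 1270.03 in high-dosed animals, against 634 to 881 in controls.

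**Figure D5:**
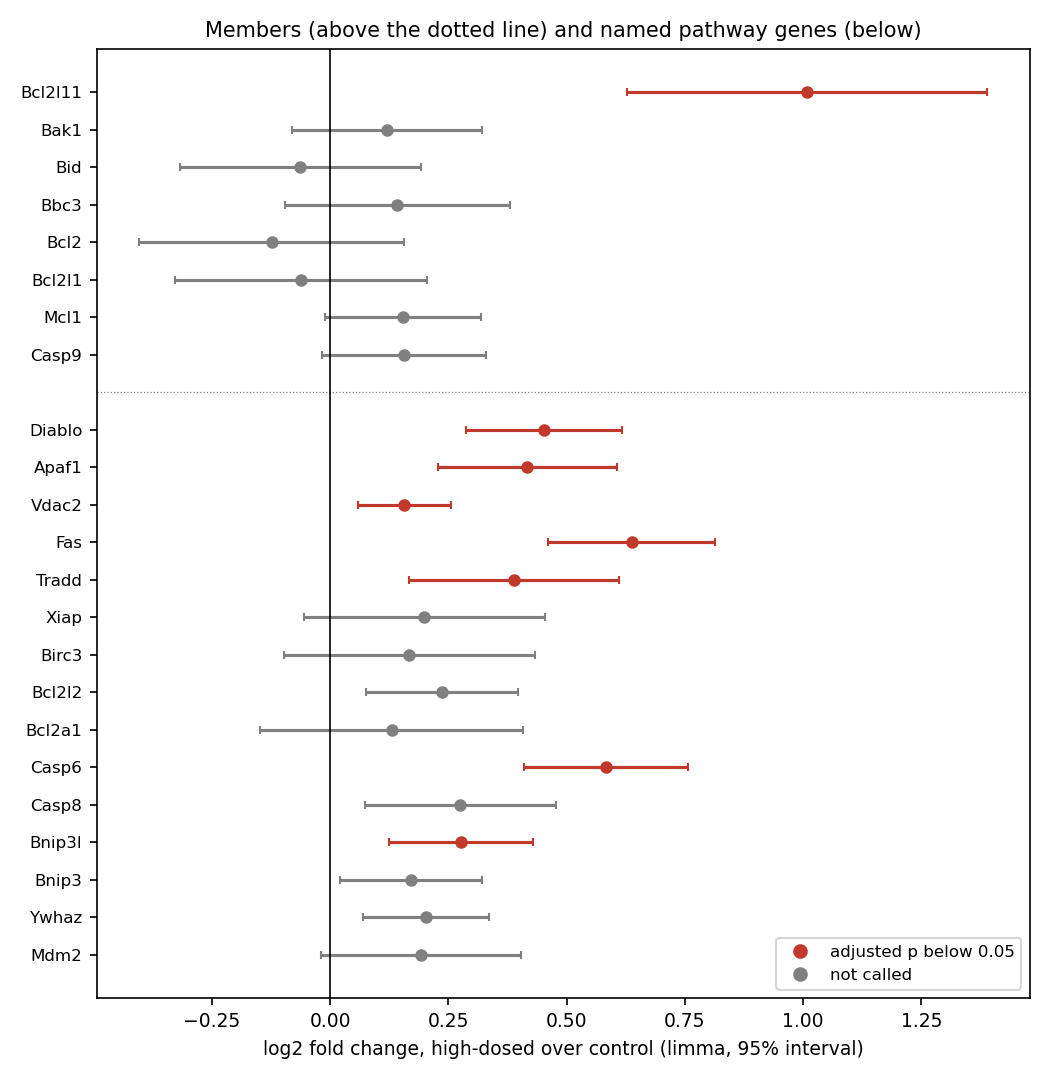
Log2 fold change of high-dosed over control animals (x axis) with its 95% interval, for the 8 members above the dotted line and the 15 named pathway genes below it; red marks an adjusted p below 0.05. Among the members only Bcl2l11 is red, and the intervals of the other members all include 0.

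The calls of Bcl2l11, Casp6, Fas and Diablo were kept when any single array was left out. Without control 1, where 325 genes were called in place of 1141, the log2 fold changes were 0.32 for Apaf1, 0.24 for Bnip3l, 0.46 for Tradd and 0.17 for Vdac2, none called (limma adjusted p from 0.0628 to 0.148). Bnip3l was not called without control 2 either (0.25, limma adjusted p = 0.0951). Tradd was not called without any 1 of the 3 controls or without high-dosed animal 3 or 4 (0.34 to 0.46, limma adjusted p from 0.0505 to 0.115), and Vdac2 was called in 6 of 24 alternatives.

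The livers were read as bulk tissue, in which fewer cells of a type and less RNA per cell cannot be told apart. All 11 hepatocyte markers were above the filter, and their summed intensity ran from 175068 to 185534 in high-dosed animals and from 176863 to 180811 in controls. Of these 11, Apoa1 was called higher (0.35 ± 0.08, SE, limma adjusted p = 0.0153), which is 9.09%, beside 7.91% of all genes tested. Asgr1 was called lower (-0.18 ± 0.04, SE, limma adjusted p = 0.0242). The endothelial sum, over 9 markers measured, was 14262 to 15740 (15739.9) in high-dosed animals, against 12422 to 14160 (14159.6) in controls. Of these 9 markers 3 rose, Pecam1 by 0.60 ± 0.11, Emcn by 0.55 ± 0.10 and Stab2 by 0.40 ± 0.10 (SE, limma adjusted p = 0.00646, 0.00538 and 0.0294). That is 33.3%, beside the same 7.91%. The cholangiocyte sum, over 5 measured, was 1064 to 1746 against 717 to 871. Epcam rose by 0.83 ± 0.15 (SE, limma adjusted p = 0.00544), and the defining markers Krt19, Krt7 and Cftr lay under the filter. The sum mostly repeats Epcam, whose mean intensity was 736, against 201 for Spp1 and 90.3 or less for the others. The macrophage sum was 34495 to 45681 against 28070.1 to 36097, so the groups overlapped. Of its 12 markers 1 rose, Mrc1 (0.31 ± 0.09, SE, limma adjusted p = 0.0459), which is 8.33% and near the 7.91% of all genes tested. For the T and natural killer lymphocyte list the groups overlapped, with Cd3e, Cd8a and Klrd1 under the filter, as they did for B lymphocytes, with Cd79b and Ms4a1 under it, and for stellate cells and neutrophils. The part of any endothelial, cholangiocyte or macrophage shift in the rises of Bcl2l11, Casp6 and Fas was not tested. The ratio of 3' to 5' signal of beta-actin, a measure of RNA integrity, ran from 1.99 to 2.74 in high-dosed animals and from 2.15 to 2.31 in controls.

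Across the 11 arrays, the genes most like a member were found by Pearson's r of log2 signal, as a description. The scaling between arrays is not stated, and their medians ran from 149 to 187. The part of such array differences in these correlations was not tested. For Bid, the pro-apoptotic member with the highest signal on the array, these were Rwdd4 (r = 0.879), Ccnl2 (0.878) and Txndc17 (0.875). For Mcl1, the guardian with the highest signal, they were Mios (0.911), Cd2ap (0.901) and Mterf1 (0.894). For Bcl2l11, added after its values were seen, they were Pold4 (0.962), Mtmr14 (0.960) and Blm (0.948), and within groups these 3 values were 0.851, 0.875 and 0.837.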

How the data were processed

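Liver RNA of 11 rats was read on 11 Affymetrix arrays. Trizol extraction and biotin labelling of cRNA are given per the labels' protocols. The deposited values are probe set intensities on a linear scale, from 1 to 34328.18; MAS5 is named, per the submitters' processing notes, without a version or role, and the scaling between arrays is not stated. The deposited intensities were taken as log2(intensity + 55.26), the pseudocount being their 20th percentile, so fold changes of dim genes are understated. The 57 control probe sets and those under the 40th percentile of mean signal (7.40) were left out, which kept 18625. The brightest probe set of 1 symbol stood for each of 10714 genes; all 8 measured members matched the RefSeq gene table by Entrez identifier.

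Groups were compared with limma 3.58.1 (R 4.3.3) with an intensity trend, two-sided, adjusted by Benjamini-Hochberg over all genes; the code was tested on simulated data. Intervals are at 95%. No sequencing depth exists, and the 3 controls limit the precision. Alternatives changed the pseudocount, filter, scaling, variance model, probe set choice and arrays used. Named genes were all members, the called genes of each pathway list (at most 6, or the 2 with the lowest p) and, for the brightest member of each kind, the 3 most correlated genes. Members and lists were chosen with earlier results of these data known.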

Additional observations from a re-analysis of the deposited data

Results flagged for a closer look

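Among the 31 probe sets of members and named genes, 3 had a high-dosed animal far from the other 7, where chance alone flags about 1 group in 20. On the dimmer Bid probe set 1369683_at, high-dosed animal 6 stood at 212, against 165 for the next animal and 139 for the lowest, a gap of 0.615 of the range on the log2 scale. On the dimmer Mcl1 probe set 1370141_at, high-dosed animal 2 stood at 488, against 673 for the next and 850 (849.77) for the highest, a gap of 0.574 of the range. On the Bcl2l11 probe set 1387338_s_at, under the signal filter, high-dosed animal 5 stood at 22.4, against 28.4 for the next and 34.1 for the highest, a gap of 0.5265 of the range. None of the 3 is the representative probe set of its gene.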

How the results depend on the processing

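Each result was recomputed under 24 alternatives. Bcl2l11 was called in 23 of them, with a log2 fold change from 0.47 to 1.21. It was not called within animal numbers 8 and above (1.17), where 0 members were called and 3 of all genes; the lone control was assumed to vary as much as its high-dosed counterparts. When single arrays were left out, Bcl2l11 ran from 0.84 to 1.18, members called stayed at 1 and genes called ran from 325 (without control 1) to 1406, against 1141; without control 2 they were 759. Within animal numbers 8 and above none of the 7 called pathway genes was called (0.18 to 0.65). Apaf1 (0.38, limma adjusted p = 0.0886), Bnip3l (0.33, 0.0670), Tradd (0.39, 0.0551) and Vdac2 (0.15, 0.171) were not called within numbers 6 and below. Nor was Bnip3l called after median centring (0.32, limma adjusted p = 0.0539) and without high-dosed animals 8, 10 and 11 (0.27, 0.0741). Tradd was called in 17 of 24 alternatives. Calls were gained by Bcl2l2 in 4 alternatives (lowest limma adjusted p = 0.0294), by Ywhaz in 4 (lowest 0.0251) and by Casp8 in 2. Within animal numbers 6 and below 612 genes were called, and 716 without high-dosed animals 8, 10 and 11, an alternative added after seeing the data. Bcl2 and Birc3 had no value under the stricter filter, which they did not pass. The share of calls that were higher was 74.2% as deposited, 64% after quantile normalization and 82.7% after median centring. Members that were not called in any alternative turned sign in 6 cases: Bcl2l1 within numbers 6 and below (0.0254), without high-dosed animals 8, 10 and 11 (0.0832) and without control 2 (0.0136), Bcl2 without high-dosed animals 8, 10 and 11 (0.0355), Mcl1 within numbers 8 and above (-0.0430) and Bid without control 9 (0.0352). When single arrays were left out, Bid ran from -0.122 to 0.0352 and Bcl2l1 from -0.120 to 0.0136. The cause was not tested. No paired analysis was made because no label pairs animals across the groups. The 1 animal number found in both groups belongs to different rats.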
